A study of Mus musculus with 2 samples.

Results

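Alternative activation and scavenger genes of macrophages were followed through the phagocytes of the injured mouse kidney. The 10 genes, of 32285 measured, were chosen by name: Mrc1, Cd163, Folr2 and Lyve1, which encode scavenger or uptake receptors, Arg1, Retnla and Chil3, which encode an enzyme and secreted proteins induced by IL-4 and IL-13, Gas6 and its receptor Mertk, and the growth factor Igf1. All 10 were present in both libraries. They were read in macrophage-like, monocyte-like and dendritic-cell-like cells, which were classified from marker genes among barcodes with at least 500 UMIs (unique molecular identifiers, 1 per captured RNA molecule), 200 or more genes and no more than 50% of UMIs from mitochondrial genes.

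Kidneys were taken 14 days after ischaemia and reperfusion of a single kidney, produced by clamping its renal artery, and the RNA of single cells was counted in droplets from transcript 3′ ends. The control library came from mice labelled Cre-, and the haplodeficient library from mice labelled Cdh5-CreERT2; Phd3f/+, in which tamoxifen-inducible Cre, driven by the promoter of the endothelial cadherin gene Cdh5, can act on 1 floxed allele of Phd3 (gene symbol Egln3). Both groups received the injury and 4 tamoxifen injections, and both libraries were labelled batch 1. The study asked how endothelial loss of a copy of this oxygen-sensing prolyl hydroxylase bears on inflammation and repair, and here the question is how far the 10 genes differed between the libraries and among kinds of phagocyte. The labels do not state how many animals entered a library, their age or strain, or whether the Cre- mice carried the floxed allele. Because each group is 1 library, nothing could be tested between groups and no difference has a replicate check. Ranges in parentheses are 95% intervals that cover counting error and nothing else.

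Macrophages exposed to IL-4 or IL-13 signal through the IL-4 receptor and the transcription factor STAT6, and raise Arg1, Retnla, Chil3 and Mrc1. Tissue macrophages that clear debris carry receptors such as the mannose receptor (Mrc1), the haemoglobin-haptoglobin receptor (Cd163), a folate receptor (Folr2) and a hyaluronan receptor (Lyve1), and take up dying cells when the bridging protein Gas6 links phosphatidylserine to the receptor tyrosine kinase Mertk. Igf1 encodes insulin-like growth factor, a secreted factor that macrophages supply during tissue repair.

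Retnla was the member that passed the size rule below in macrophage-like and in mixed-marker cells, so the sequence before its start is shown, with that of Chil3, another IL-4 target, which here was a gene of monocyte-like cells. Retnla lies on chromosome 16 (GRCm38, 48842551 to 48844461, + strand) and Chil3 on chromosome 3 (106147554 to 106167564, - strand), and both are annotated as protein-coding. The sequences are from RefSeq (GRCm38.p6) and run 5′ to 3′ on the strand of the gene, from 250 bases before the RefSeq start and ending where the GENCODE gene begins, chr16:48842359-48842550 for Retnla and chr3:106167565-106167814 for Chil3. Capitals mark a match to the STAT6 motif TTCNNNNGAA, which reads the same on both strands.
Retnla: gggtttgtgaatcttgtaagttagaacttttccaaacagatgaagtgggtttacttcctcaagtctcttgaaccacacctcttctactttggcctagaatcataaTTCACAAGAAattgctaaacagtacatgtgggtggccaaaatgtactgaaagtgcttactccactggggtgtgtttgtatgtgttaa
Chil3: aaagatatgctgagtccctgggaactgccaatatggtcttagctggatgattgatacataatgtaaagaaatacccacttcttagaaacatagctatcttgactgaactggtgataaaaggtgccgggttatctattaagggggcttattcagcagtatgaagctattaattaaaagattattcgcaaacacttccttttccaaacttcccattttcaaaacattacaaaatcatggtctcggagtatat
The Retnla match begins 145 bases before the RefSeq start. Of the 8 members with a promoter entry, Retnla was the 1 with a match in its 250 bases, and 5.85% of 32851 promoters of that length held the motif. A match describes the letters of this window and not the binding of a factor. No entry was used for Arg1 or Lyve1.

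The libraries held 134190236 UMIs (control) and 114668145 UMIs (haplodeficient), and 8737 and 9222 cells were retained, with medians of 8762 and 5471.5 UMIs. Median mitochondrial shares of cells were 10.2% (control) and 2.69% (haplodeficient), and 28 retained barcodes occurred in both. Egln3 in endothelial-like cells stood at 24.9 CPM (the UMIs of a gene relative to all UMIs of the class) for the control and 23.4 CPM for the haplodeficient library, from 43 and 99 UMIs. The labels do not say which exon is floxed, and UMIs of transcript 3′ ends need not cover it, so this does not check the genotype.

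Macrophage-like cells numbered 710 (control) and 1324 (haplodeficient), which was 8.13% (7.56 to 8.72) and 14.4% (13.6 to 15.1) of cells. All 10 macrophage markers, among them C1qa, Csf1r and Adgre1, were detected in both, and summed to 15131 and 17897 CPM. Their median depths were 4539.5 and 5307 UMIs, and median mitochondrial shares 3.61% and 1.91%. Summed markers of proximal tubule cells stood at 382 CPM in control and 21.7 CPM in haplodeficient macrophage-like cells, and the source of these UMIs was not tested. Monocyte-like cells numbered 51 and 364, and dendritic-cell-like cells 116 and 163. A further cluster of 136 and 146 cells, led by Lyz1, Ccl9, Mmp12 and Ccr2, is called the mixed-marker cluster. All 10 macrophage markers were detected in it, and 9 were in at least 10% of its cells at 2-fold over other cells. It had more monocyte than macrophage markers among its leading genes. In the clustering of all cells, a cluster of 326 cells led by Retnla and Cd209a was named dendritic cell type 2. With the members and other gene lists left out, Mmp12 and Ccl9 were among its leading genes too. When phagocytes were clustered again, 149 cells had that name. The line between mixed-marker and dendritic-cell-like cells, and the share of Retnla that each held, therefore rest on the second clustering. The members and the other gene lists were left out of the clustering. The classes were rebuilt here, and a difference from any annotation by the authors may come from that.

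**Figure D1:**
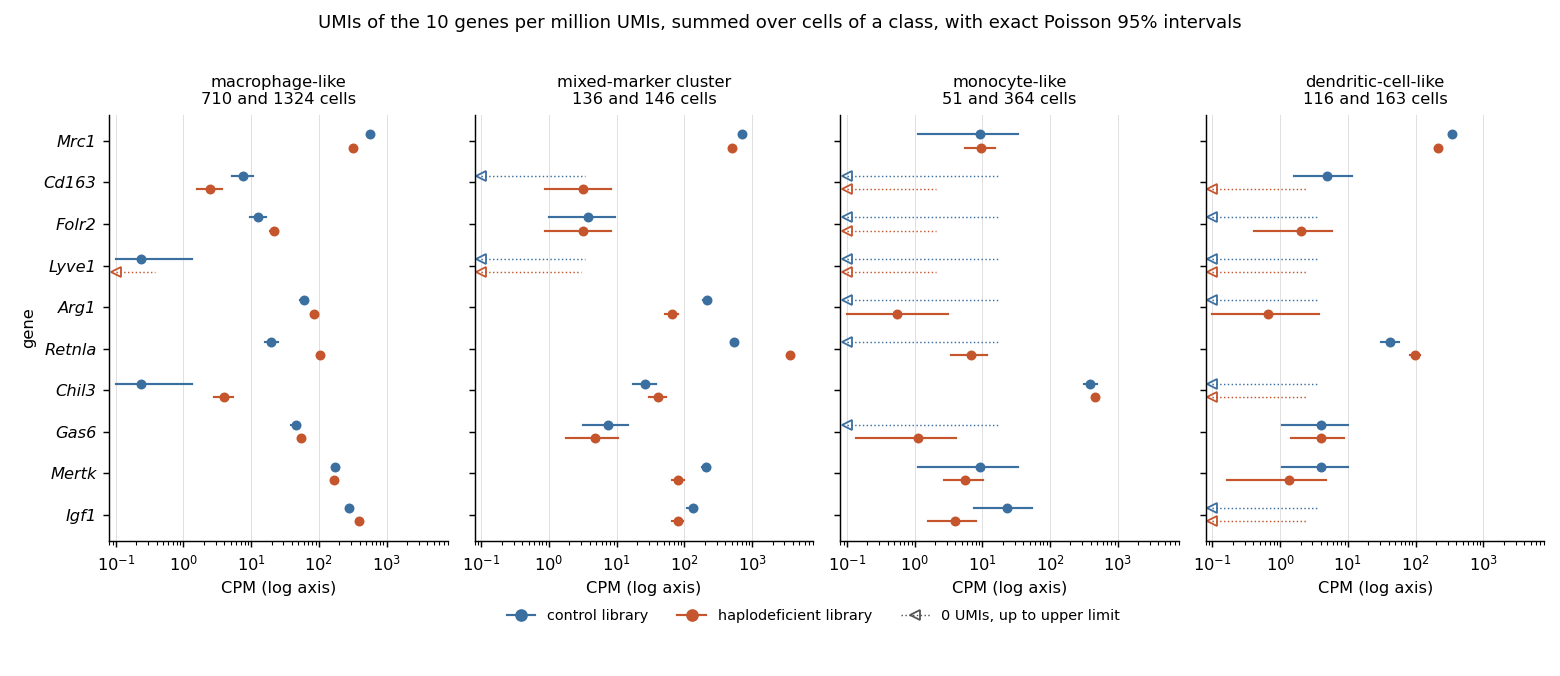
Level of each of the 10 genes in CPM (log axis) in 4 phagocyte groups, with 1 point per library and exact Poisson 95% intervals, and open triangles with a dotted line to the upper limit where a library had 0 UMIs. In the mixed-marker cluster Retnla stood at 537 (control) and 3603 CPM (haplodeficient), while Arg1 and Mertk were lower in the haplodeficient one.

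In macrophage-like cells Retnla was higher in the haplodeficient library, and no other member passed the size rule. A gene was said to be higher or lower between libraries when its log2 ratio (haplodeficient over control, 5 CPM added to each) reached 1 in size and the 2 Poisson intervals did not overlap, among genes that averaged 50 CPM or more and had 30 UMIs or more. Of all 2755 eligible genes, 0.907% passed this rule, 0.29% as higher and 0.617% as lower. Of the 10 members 5 were eligible, and Retnla alone passed, as higher. The log2 ratios of the other 4 eligible members were -0.80 for Mrc1, 0.49 for Arg1, 0.48 for Igf1 and -0.03 for Mertk. The median log2 ratio was 0.36 over all 10 members and 0.48 over the 5 eligible ones, against -0.02 for all eligible genes.

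Retnla encodes RELMalpha, a small secreted protein of the resistin family that marks IL-4 responses in mouse macrophages. Its level was 19.9 CPM (15.9 to 24.6) in control macrophage-like cells and 102.6 CPM (96.3 to 109) in haplodeficient ones, a ratio of 5.16 (4.13 to 6.52) and a log2 ratio of 2.11. Few cells carried it: 12 of 710 control cells (1.69%) and 70 of 1324 haplodeficient cells (5.29%) had a UMI. The 5 richest cells held 77.4% of its control and 38.1% of its haplodeficient UMIs. After each cell was thinned to 1000 UMIs, the shares were 6 of 669 cells (0.897%) and 34 of 1203 (2.83%). In T-cell-like cells, which should lack the gene, they were 0 of 174 and 4 of 1017 (0.393%), at median depths of 2709.5 and 2584.5 UMIs. Free RNA, read in barcodes of 1 to 100 UMIs, held 4.71 CPM (control) and 55.1 CPM (haplodeficient) of Retnla. Given the share of free RNA in macrophage-like cells, 0.681% and 1.13% of their Retnla UMIs would be free RNA.

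A group of shallow macrophage-like cells, with a median of 860 UMIs, held 14.3% of the control and 42.9% of the haplodeficient Retnla UMIs of the class. In that group Retnla stood at 270 CPM, in 2 of 43 cells, and at 1617 CPM, in 20 of 198 cells. Without it the log2 ratio was 1.55 and the mean level fell below the minimum of the rule, so that no member passed. At a finer clustering of all cells (Leiden resolution 2) the log2 ratio was 2.86, and again no member passed. In the macrophage-like subcluster led by Ccl7 and Ccl12, 0 of 272 control cells and 15 of 368 haplodeficient cells had a Retnla UMI. Its level there was 50.6 CPM in the haplodeficient library, 21.3-fold a control level set at a floor of 3 UMIs over the subcluster. In the subcluster led by Slco2b1 and Abca9, 0 of 145 and 5 of 109 cells had one, 18.5-fold a floor of 3 UMIs. These folds take UMIs as independent, but the UMIs lay in few cells, so they are no lower bounds. A single cell held 37 of the 88 haplodeficient UMIs of the Ccl7-led subcluster and 23 of the 45 of the Slco2b1-led one. Without that cell the folds over the floor were 12.4 and 9.17. In the Gpnmb-led subcluster the levels were 39.3 CPM (29.8 to 50.9) and 71.7 CPM (64.5 to 79.5).

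Mrc1 encodes the mannose receptor, which takes up glycoproteins and collagen fragments. It stood at 570 CPM (548 to 594) in control and 325 CPM (313 to 336) in haplodeficient macrophage-like cells, a ratio of 0.569 (0.539 to 0.60). The intervals did not overlap, but the log2 ratio of -0.80 did not reach the size of 1. Of thinned cells, 267 of 669 (39.9%) and 326 of 1203 (27.1%) had a UMI, against 1 of 174 and 0 of 1017 T-cell-like cells. Values differed in direction among subclusters, and none of those given next reached the size of 1. Mrc1 stood in the Ccl7-led subcluster at 1227 CPM (1166 to 1289) and 879 CPM (835 to 924), a log2 ratio of -0.48, and in the Gpnmb-led one at 126 CPM (108 to 145) and 95.6 CPM (87.2 to 104), a log2 ratio of -0.38. In the Slco2b1-led one it stood at 860 CPM (781 to 945) and 1155 CPM (1054 to 1264), a log2 ratio of 0.42. In the Tcof1-led subcluster the levels were 766 and 841 CPM, with intervals that overlapped.

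The make-up of the class differed at the same time. The Ccl7-led and Slco2b1-led subclusters, where Mrc1 was high, were 38.3% and 20.4% of control macrophage-like cells and 27.8% and 8.23% of haplodeficient ones. The Gpnmb-led subcluster, where Mrc1 was low, was 16.5% and 29.2%. With each subcluster given the same weight in both libraries, the Mrc1 log2 ratio was -0.17. Whether cells of a kind were fewer in the tissue, or were lost or gained in dissociation, was not tested.

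**Figure D2:**
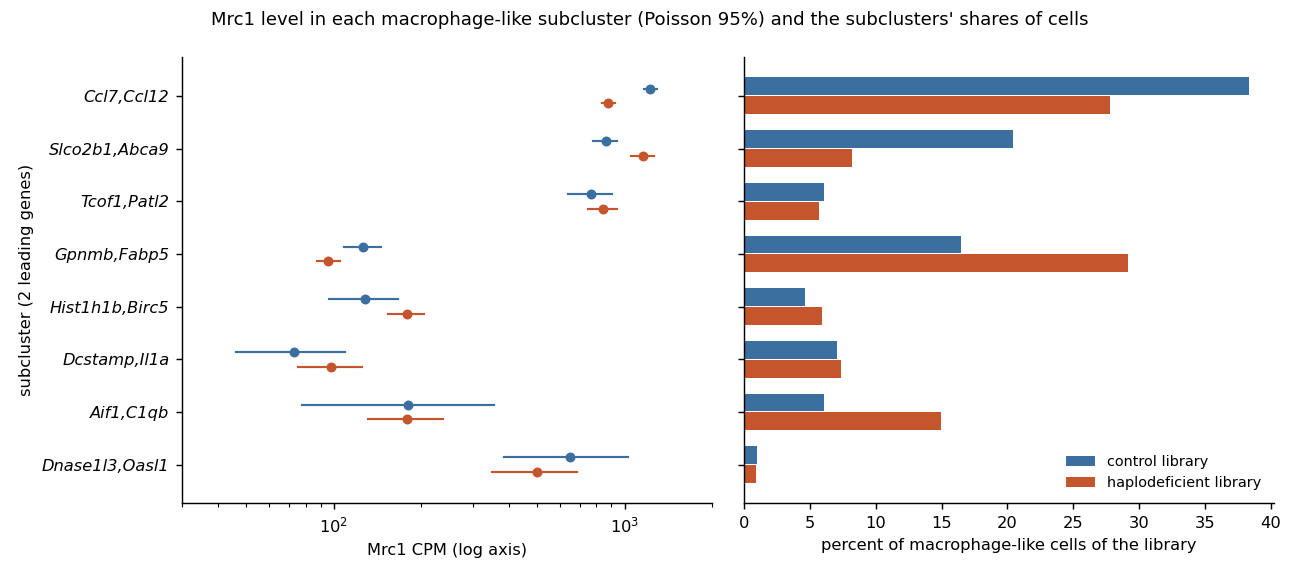
Mrc1 level in CPM (log axis, exact Poisson 95% intervals) in the 8 macrophage-like subclusters, each named by its 2 leading genes, and the share of the library's macrophage-like cells in each. The Ccl7-led and Slco2b1-led subclusters, at 860 CPM or more in both libraries, were smaller in the haplodeficient library, and the Gpnmb-led one, at 126 and 95.6 CPM, was larger.

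The other uptake receptors were sparse. Cd163 had 32 UMIs in control and 24 in haplodeficient macrophage-like cells, 7.58 CPM (5.18 to 10.7) and 2.49 CPM (1.59 to 3.70), but 12 of the control UMIs came from 1 cell. The cells with a UMI were 12 of 710 and 23 of 1324, 1.69% and 1.74%. Folr2 stood at 12.8 CPM (9.61 to 16.7) and 21.9 CPM (19.0 to 25), a ratio of 1.71 (1.26 to 2.35), below the level minimum of the rule. Its highest pooled level was 66.0 CPM in the Tcof1-led subcluster. Folr2 was no phagocyte-restricted gene here: it stood at 10.7 and 13.4 CPM in proximal-tubule-like cells, which held 63.6% of its control and 15.1% of its haplodeficient UMIs. Lyve1 had 1 UMI in 710 control macrophage-like cells and 0 in 1324 haplodeficient ones, which allows a share of up to 0.227% of cells with a UMI there and sets no limit on cells that express the gene. It was found instead in pericyte or smooth-muscle-like cells, at 13.6 and 18 CPM, and in fibroblast-like cells, at 8.69 and 21.9 CPM, with intervals that overlapped in both classes.

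Arg1 encodes arginase, which turns arginine into ornithine and urea. In macrophage-like cells it stood at 59.5 CPM (52.3 to 67.3) in control and 85.6 CPM (79.9 to 91.7) in haplodeficient cells, a log2 ratio of 0.49. This ratio was not stable: it was 0.06 with equal subcluster weights and -0.22 with classes taken from each cell's own markers. Arg1 was concentrated in the Gpnmb-led subcluster, at 108 CPM (92.0 to 127) and 144 CPM (134 to 155), which held most of its macrophage-like UMIs. In the Ccl7-led subcluster it was 28.4 CPM (19.9 to 39.4) and 12.1 CPM (7.47 to 18.4). The shares of thinned macrophage-like cells with a UMI were 2.54% and 3.57%. Chil3, which encodes a chitinase-like lectin, had 1 UMI in control and 38 in haplodeficient macrophage-like cells, of which 60.5% came from 1 cell, a ratio of 16.6 (2.81 to 673).

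Mertk stood at 172 CPM (160 to 185) in control and 168 CPM (160 to 176) in haplodeficient macrophage-like cells. The ratio was 0.977 (0.894 to 1.07), a difference within counting error, and its log2 of -0.03 turned to 0.05 under TMM scaling and 0.06 under median-of-ratios scaling. Over subclusters it was highest in the Tcof1-led, Gpnmb-led and Slco2b1-led ones, at pooled levels of 260, 217 and 209 CPM. In the Ccl7-led subcluster it stood at 171 CPM (149 to 195) and 118 CPM (103 to 136), a log2 ratio of -0.51. In the Slco2b1-led one it stood at 158 CPM (125 to 196) and 272 CPM (224 to 328), a log2 ratio of 0.77. The intervals did not overlap in either, and neither ratio reached the size of the rule. Gas6 stood at 45.2 CPM (39.1 to 52.1) and 53.9 CPM (49.3 to 58.7), with overlapping intervals. Its log2 ratio of 0.23 became -0.17 in thinned cells, and 9.003% of its control UMIs there would be free RNA.

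Igf1 stood at 280 CPM (264 to 296) in control and 393 CPM (380 to 405) in haplodeficient macrophage-like cells, a ratio of 1.40 (1.31 to 1.5) and a log2 ratio of 0.48. Among subclusters it was highest in the Gpnmb-led one, where the libraries hardly differed, at 508 CPM (472 to 547) and 548 CPM (527 to 569). That subcluster held 62.4% of the control and 72.7% of the haplodeficient Igf1 UMIs of the class. With equal subcluster weights the log2 ratio was 0.17. The levels differed more in dividing macrophage-like cells, at 112 CPM (82.5 to 148) and 363 CPM (328 to 400), and in the Slco2b1-led subcluster, at 120 CPM (92.0 to 155) and 253 CPM (207 to 307). Both differences reached the size of the rule, but the share of all genes that did so in these subclusters was not counted. In the dividing cells 8 of 33 control and 35 of 78 haplodeficient cells had an Igf1 UMI. A single cell held 17 of the 49 control UMIs and another 95 of the 406 haplodeficient ones.

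The mixed-marker cluster held most of the Retnla of the kidney. Its cells carried 80.2% of all Retnla UMIs in the control library and 78.0% in the haplodeficient library, although they were 1.56% and 1.58% of cells. Retnla was higher there in the haplodeficient library, and Arg1 and Mertk were lower. Of 2797 eligible genes in this cluster 3.07% passed the rule, 0.608% as higher and 2.47% as lower. Of the 5 eligible members 1 passed as higher and 2 as lower, and the median log2 ratio was -0.22 over all 10 and -0.69 over the 5 eligible ones, against -0.01 for all eligible genes. The cluster's macrophage markers summed to 10890 and 10562 CPM and its monocyte markers to 1013 and 1131 CPM.

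Retnla in the mixed-marker cluster stood at 537 CPM (494 to 582) in control and 3603 CPM (3499 to 3710) in haplodeficient cells, a ratio of 6.71 (6.16 to 7.33) and a log2 ratio of 2.74. The cells with a UMI were 17 of 136 (12.5%, 7.45 to 19.3) and 70 of 146 (47.9%, 39.6 to 56.4). In thinned cells they were 14 of 136 (10.3%) and 54 of 145 (37.2%), at median depths of 7389.5 and 7947.5 UMIs before thinning. Cells with a UMI had a median of 15 of them in the control, against 33.5 in haplodeficient cells. At least 10 UMIs were found in 12 control and 51 haplodeficient cells, and at least 100 in 1 and 17. The 5 richest cells held 75% and 30.0% of its UMIs, so that the control level rests on fewer cells. The number of positive cells was therefore higher in the haplodeficient library. The median of UMIs per positive cell was higher too, but in the control it rests on 17 cells. Of the positive cells, 12 of 17 and 51 of 70 had at least 10 UMIs, which are similar shares.

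The difference kept its direction in all 15 alternatives that gave a value for this cluster, with log2 ratios of 1.98 to 3.69. Several of these could hardly have changed it. The level minimum cannot move a ratio, and TMM and median-of-ratios scaling shifted all ratios of the cluster by 0.0012 and 0.038. All alternatives use the same 2 libraries. Without the richest cell of each library the log2 ratio was 3.02. The make-up of the cluster itself was less fixed, since the shared over the joint cells of the most similar cluster (Jaccard index) lay between 0.31 and 0.74 when cells were clustered again in other ways. Of the cluster's Retnla UMIs, 0.0218% and 0.0180% would be free RNA.

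**Figure D3:**
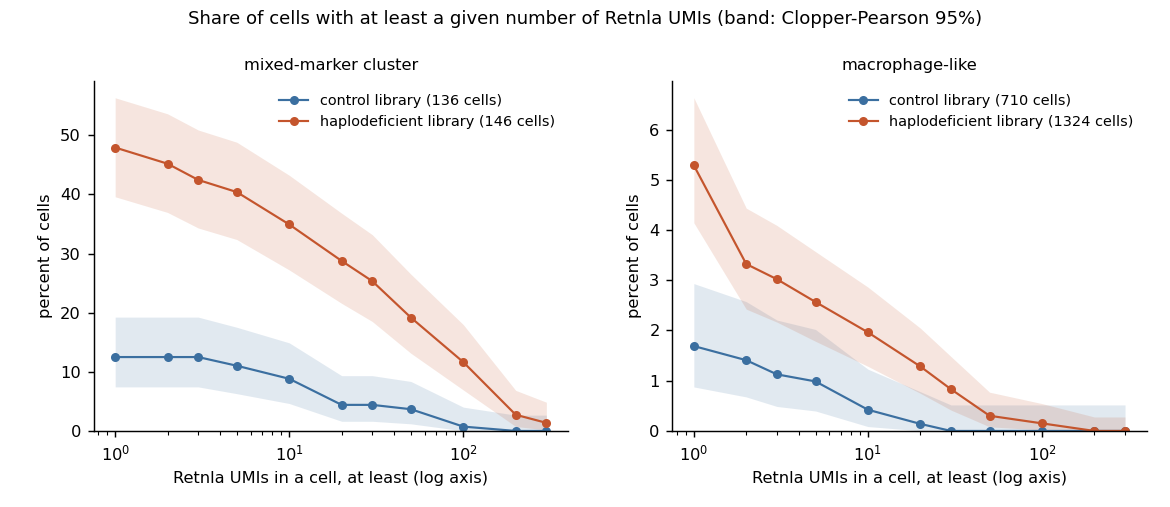
Percent of cells (y axis) with at least a given number of Retnla UMIs (x axis, log) in the mixed-marker cluster and in macrophage-like cells, with bands for Clopper-Pearson 95% intervals. At 10 UMIs or more the mixed-marker cluster had 8.82% of control and 34.9% of haplodeficient cells, and the bands did not overlap.

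Arg1 in the mixed-marker cluster was 213 CPM (187 to 243) in control and 64.5 CPM (51.2 to 80.1) in haplodeficient cells, a log2 ratio of -1.65. The cells with a UMI were 49 of 136 (36.0%) and 27 of 146 (18.5%). Mertk was 211 CPM (185 to 241) and 80.4 CPM (65.5 to 97.7), a log2 ratio of -1.34, in 51.5% and 38.4% of cells. With coarser subclusters (resolution 0.6) these log2 ratios were -0.32 and -0.95, and neither gene passed. Mrc1 stood at 719 CPM (670 to 772) and 509 CPM (470 to 550), and Igf1 at 132 CPM (111 to 155) and 79.6 CPM (64.8 to 96.8). Both lay lower in the haplodeficient library without reaching the size of the rule, and Igf1 turned to 0.20 in thinned cells. Chil3 had 28 and 51 UMIs, with overlapping intervals and a direction that changed between alternatives, and Lyve1 had none.

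Retnla and Arg1, both targets of IL-4, were seldom in the same cells of this cluster. In thinned cells both were found in 0 of 136 control cells and 1 of 145 haplodeficient cells. The products of the single shares were 1.29% and 1.28%, which such counts cannot be told from. Retnla with Mrc1 was found in 6 of 136 (4.41%, 1.64 to 9.36) and 22 of 145 cells (15.2%, 9.76 to 22.1), against products of 4.24% and 12.3%. These shares lay within counting error of the products.

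Chil3 was the 1 member with at least 30 UMIs in monocyte-like cells. It stood at 396 CPM (317 to 489) in control and 458 CPM (427 to 491) in haplodeficient cells, a ratio of 1.16 (0.926 to 1.46), so the libraries did not differ beyond counting error. Of 3274 eligible genes 3.51% passed the rule in this class (1.71% higher, 1.8% lower), none of them a member. The median log2 ratio was 0.01 over the 10 members, against -0.03 for all eligible genes. Chil3 alone was eligible, and Cd163, Folr2 and Lyve1 had no UMI in either library and so a ratio of 0. The median over the members therefore says little. The Chil3 level followed the kind of monocyte. In cells led by Ly6c2, a marker of classical monocytes, Chil3 reached 1473 CPM (1062 to 1991) and 1343 CPM (1228 to 1465), from 5 control and 63 haplodeficient cells. In cells led by Adgre4 and Treml4, which mark patrolling monocytes, it was 233 CPM (169 to 313) and 224 CPM (200 to 250). The monocyte markers summed to 5514 and 6858 CPM in the class.

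Over all phagocyte-like cells Chil3 stood at 17.6 CPM (14.5 to 21.1) in control and 64.1 CPM (59.97 to 68.4) in haplodeficient cells, a log2 ratio of 1.61. Monocyte-like cells were 51 of 1013 and 364 of 1997 of these cells, and with equal subcluster weights the log2 ratio was -0.00. Neutrophil-like cells also held Chil3, at 30.3 and 38.7 CPM, with overlapping intervals. In T-cell-like cells the thinned share with a Chil3 UMI was 0 of 174 and 0 of 1017, against 13.7% and 21.8% of monocyte-like cells.

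In dendritic-cell-like cells 2 members, Mrc1 and Retnla, had enough UMIs for the rule. Mrc1 stood at 345 CPM (310 to 383) in control and 214 CPM (191 to 239) in haplodeficient cells, and all of it lay in the Cd209a-led subcluster. There it was 810 CPM (727 to 900) and 405 CPM (362 to 452), a ratio of 0.50 (0.428 to 0.583) and a log2 ratio of -0.99. The Xcr1-led and Ccr7-led dendritic-cell-like subclusters had no Mrc1 UMI. Over the class the log2 ratio was -0.68 and kept its sign in 16 of 17 alternatives. It was 0.23 with a minimum of 1000 UMIs per cell, where cells were clustered again and the class held 98 and 147 cells.

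Retnla in dendritic-cell-like cells stood at 42.5 CPM (30.8 to 57.3) and 98 CPM (82.8 to 115) and passed the rule as higher, in a class where 0.39% of 2821 eligible genes passed as higher, 1.91% as lower and 2.3% in all. This value rests on single cells: 72.1% of its 43 control UMIs and 96.6% of its 147 haplodeficient UMIs were each in 1 cell. Without those cells the log2 ratio was -1.02, and with each library clustered on its own -1.14. It was positive in 15 of 17 alternatives, up to 2.78 with classes from each cell's own markers, so its size and direction were not stable. The cells with a UMI were 5 of 116 and 4 of 163. The median log2 ratio was 0.00 over the 10 members and 0.22 over the 2 eligible ones, against -0.07 for all eligible genes. The other members had at most 6 UMIs in either library of this class, and Chil3, Igf1 and Lyve1 had none.

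**Figure D4:**
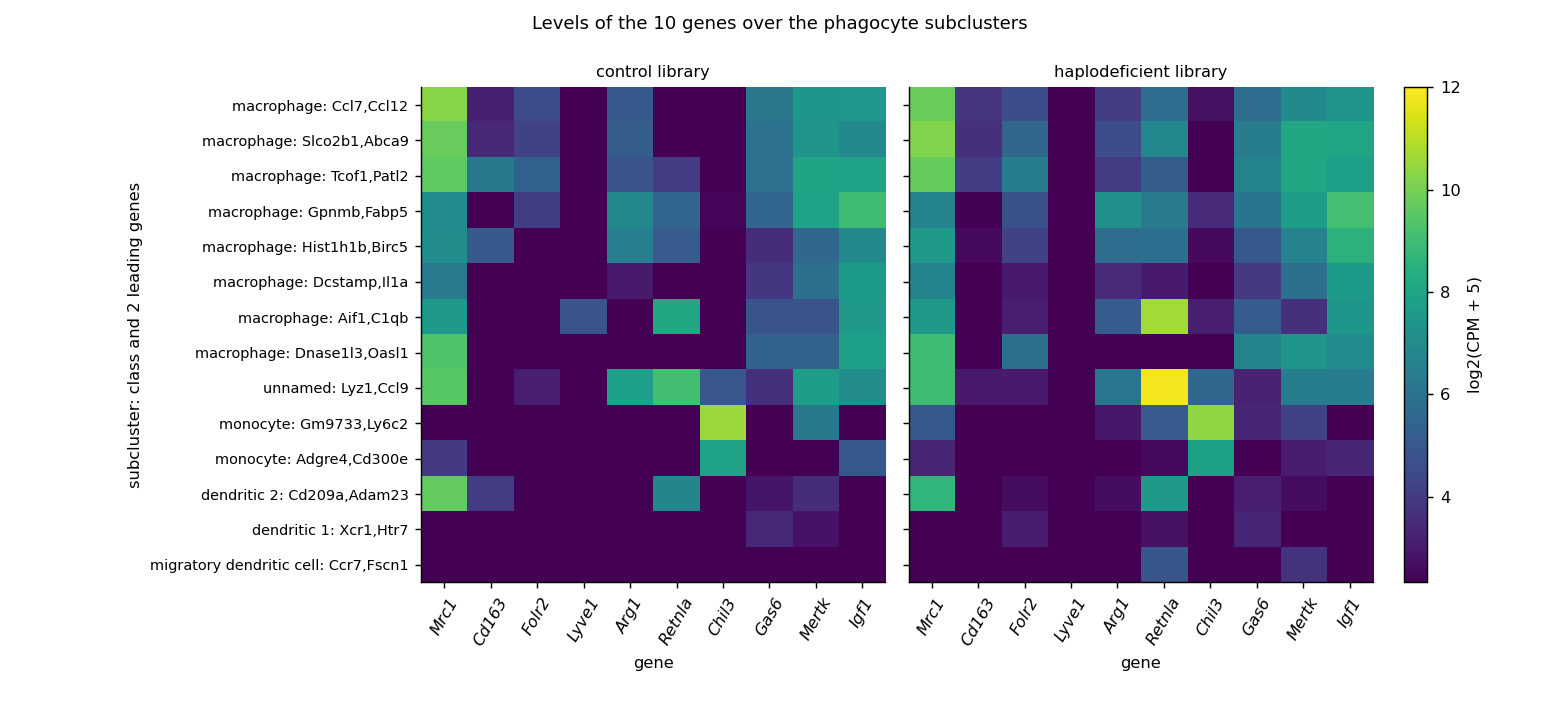
Level of each of the 10 genes, as log2(CPM + 5), in the 14 phagocyte subclusters of each library, with the subclusters named by class and 2 leading genes. Mrc1 stood at 405 CPM or more in both libraries in the Ccl7-led, Slco2b1-led, Tcof1-led and Dnase1l3-led macrophage-like, the mixed-marker and the Cd209a-led dendritic-cell-like subclusters. The highest level of Igf1 was in the Gpnmb-led, that of Chil3 in the Ly6c2-led and that of Retnla in the mixed-marker (unnamed, Lyz1-led) one. The Lyve1 square of the shallow Aif1-led subcluster in the control is 1 UMI.

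Across the 12 subclusters with at least 50 cells, some members shared a pattern and others did not. Pearson's r of log2(CPM + 5) was 0.92 for Folr2 with Gas6, 0.82 for Mertk with Igf1, 0.81 for Folr2 with Mertk and 0.79 for Arg1 with Igf1. It was below 0 for Chil3 with every other member, and 0.61 for Retnla with Arg1, the highest of Retnla with a member. The genes most like each member by Pearson's r of log2(CPM + 5), both libraries pooled, were Fcgr2b (0.94), Plxdc2 (0.93) and Tmem176a (0.92) for Mrc1, and Cd63 (0.98), C1qc (0.97) and Abcc3 (0.96) for Igf1. For Mertk they were Kcnk13 (0.96), St18 (0.96) and Sash1 (0.94), and for Gas6 they were Ccl8 (0.91), Tspan4 (0.91) and Mfsd11 (0.91). For Chil3 they were Hp (0.98), Saa3 (0.98) and Plcb1 (0.98), and for Folr2 they were Mfsd11 (0.93), Pdgfc (0.92) and Wwp1 (0.90). Cenpb (0.91), Bcar3 (0.90) and Il11ra1 (0.90) were most like Arg1. Cd200r1 (0.81), Mcub (0.76) and Dok2 (0.76) were most like Retnla, and Tex14 (0.90), 2810013P06Rik (0.89) and Ptrh2 (0.87) most like Cd163, which had few UMIs. These values describe 12 points that share libraries and depth, and were taken as the highest of 4947 genes.

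Igf1, Mertk, Gas6 and Folr2 were also measured outside the phagocytes. Igf1 was highest in macrophage-like cells and stood next in endothelial-like cells, at 134 CPM (117 to 152) and 135 CPM (125 to 147), where the libraries did not differ beyond counting error. Mertk in macrophage-like cells was level with that in pericyte or smooth-muscle-like cells, at 172 CPM (142 to 206), and fibroblast-like cells, at 169 CPM (137 to 206), in the control library. In the haplodeficient library those classes stood lower, at 116 CPM (98 to 137) and 121 CPM (99.9 to 146), than the macrophage-like cells at 168 CPM. Endothelial-like cells had 110 CPM (94.9 to 127) and 89.8 CPM (81.0 to 99.3) of Mertk.

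The ligand of Mertk came mainly from other cells. Gas6 was highest in proximal-tubule-like cells, at 251 CPM (246 to 256) in control and 286 CPM (271 to 303) in haplodeficient cells, and lay between 133 and 229 CPM in fibroblast-like, distal convoluted tubule-like, thick ascending limb-like and endothelial-like cells of the control. In the control its interval overlapped that of fibroblast-like cells (192 to 272). Proximal-tubule-like cells held 55.9% of control and 13.5% of haplodeficient Gas6 UMIs. Thick ascending limb-like cells held 15.7% and 33.0%, the largest share of a class in the haplodeficient library. Of proximal-tubule-like cells 3112 control and 398 haplodeficient ones were retained. Free RNA held 142 and 75.6 CPM of Gas6.

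**Figure D5:**
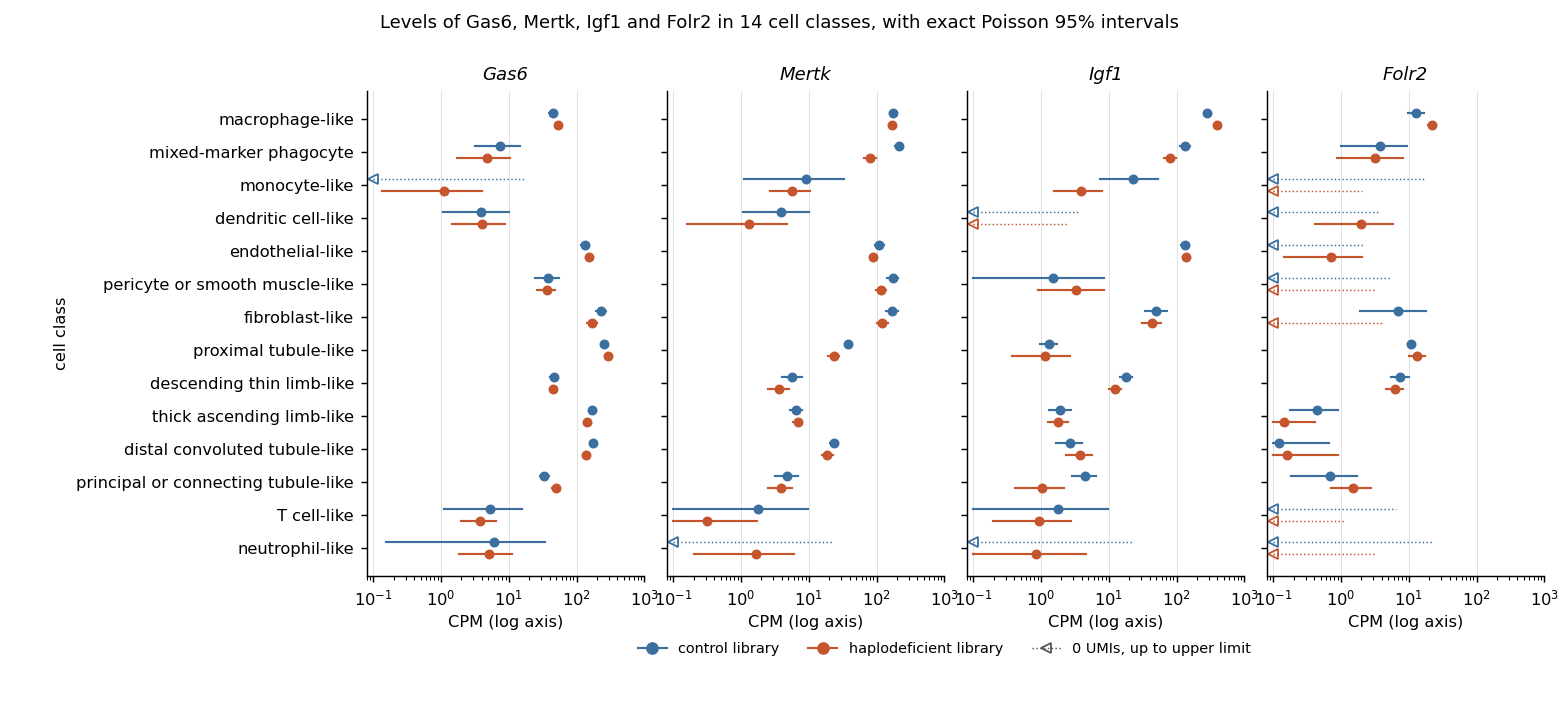
Levels of Gas6, Mertk, Igf1 and Folr2 in CPM (log axis, exact Poisson 95% intervals) in 14 cell classes of each library, with open triangles for 0 UMIs. Gas6 was lower in macrophage-like cells than in the proximal-tubule-like cells at 251 and 286 CPM, and Igf1 was highest in macrophage-like cells at 280 and 393 CPM.

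The partners of the members were read in the same cells. Il13 and Il4, the ligands of the alternative activation pathway, were almost undetected: Il4 had 25 UMIs in haplodeficient and 0 in control T-cell-like cells, or 7.84 and 0 CPM. The class held 3185502 UMIs in 1036 haplodeficient cells but 564918 in 178 control cells. So few control UMIs leave room for a like level, and the 0 shows neither absence nor a difference. Both ligands were near 0 in phagocytes. Their receptor Il4ra stood at 70.6 and 60.7 CPM in macrophage-like cells and at 81.6 and 58.9 CPM in the mixed-marker cluster. The transducer Stat6 stood at 35.8 and 37.9 CPM in macrophage-like cells and 42.6 and 34.2 CPM in the mixed-marker cluster. Neither passed the rule. Axl, another receptor for Gas6, was 168 and 121 CPM in macrophage-like and 291 and 298 CPM in mixed-marker cells, and Tyro3 had few UMIs in either. Pros1, the second bridging ligand, stood at 40.5 and 30.8 CPM in macrophage-like cells. Hmox1, which breaks down the haem that Cd163 brings in, was 148 and 181 CPM, and the scavenger receptor Stab1 was 174 and 183 CPM. Igf1r, the receptor of Igf1, stood at 62.5 and 36.4 CPM in macrophage-like cells and at 486 and 556 CPM in proximal-tubule-like cells.

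In macrophage-like cells no gene of the 9 other lists passed the rule: 0 of 5 eligible genes of IL-4 receptor signalling, 0 of 5 other alternative activation targets, 0 of 5 other scavenger receptors and partners, 0 of 8 TAM receptor and efferocytosis genes and 0 of 9 perivascular and resident macrophage genes. The list of IL-4 and IL-13 ligands and inducers had no eligible gene of 7, and the lists of IGF receptors and binding proteins, classical activation and dissociation stress had 1, 6 and 11 eligible genes with none past the rule. Of all 2755 eligible genes of this class 0.907% passed, so finding none in lists this small does not show that they were unchanged. In the mixed-marker cluster 4 genes of these lists were lower in the haplodeficient library, namely Hpgd (log2 ratio -1.77), which degrades prostaglandins, the scavenger receptor Msr1 (-1.18), Ptgs2 (-1.18), which makes prostaglandins, and the costimulatory gene Cd80 (-1.35). In monocyte-like cells Hpgd (2.08), Ninj1 (1.22), Fos (1.37) and Atf3 (1.66) were higher, the last pair being among the genes induced by tissue dissociation. In dendritic-cell-like cells the lectin Clec10a (1.06), the chemokine Ccl17 (1.13) and Cxcl10 (1.77) were higher, and Fn1 (-1.58) and Hspa1a (-1.45), a heat shock gene, were lower. Of all eligible genes, 3.07% passed in the mixed-marker cluster, 3.51% in monocyte-like cells and 2.3% in dendritic-cell-like cells.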

How the data were processed

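Per the file headers, Cell Ranger version 4 wrote the deposited values, which are unfiltered, raw UMI counts of each barcode. The build was mm10, per the submitters' processing notes. The annotation used for counting is not given in the sources used here. Coordinates are from GENCODE release M21 (GRCm38), which matched 32158 of 32285 gene identifiers, and promoter sequences from RefSeq.

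Of barcodes within the limits on UMIs, genes and mitochondrial share, 9452 (control) and 10026 (haplodeficient) remained. The 715 and 804 with the highest Scrublet scores (scanpy 1.11.5; 0.8% per 1000 cells) were removed as likely doublets, and doublets of like cells remain. Cells were clustered jointly without batch correction on 2000 variable genes, 30 components and 15 neighbours with the Leiden method (leidenalg 0.10.2, scikit-learn 1.9.0) at resolution 1, leaving out the members and lists. Phagocyte clusters were clustered again (20 components, resolution 1). A class needed at least 3 markers in at least 10% of cells at 2-fold over other cells, and leading genes without more markers of another class. The scoring and the second resolution were set after the data were seen.

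UMIs were summed per class and library and scaled to CPM, with exact Poisson, Clopper-Pearson and conditional binomial intervals (scipy 1.17.1). Shares were also computed after thinning each cell to 1000 UMIs, leaving out shallower cells. No test between groups was run. Every member was named in each class, and genes of the other lists where they passed the rule in a class (at most 8 per class) or were named partners. The mixed-marker cluster, a group formed after the data were seen, was treated alike. The members and lists were chosen with earlier results of these data known. Of 130 list genes 129 were used, and 1 is not analysed here. Alternatives covered scaling (TMM, edgeR 4.0.16, and median of ratios, DESeq2 1.42.0, used for scaling factors only), the added CPM, the level minimum, thinning, free RNA, doublets, cell filters and clustering.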

Additional observations from a re-analysis of the deposited data

How the results depend on the processing

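No paired analysis was possible because each group had 1 library, which also left no replicate to leave out. Of 850 log2 ratios of single members under the alternatives, 769 stayed within a counting band, 79 moved outside it and 2 reversed a call. The band pairs the low Poisson limit of 1 library with the high limit of the other, with 5 CPM added to each. It is not the ratio interval given above. Part of the 769 was fixed in advance, since a change of the level minimum cannot move a ratio. Cd163, Folr2 and Lyve1 in monocyte-like cells were also 0 in every alternative. The reversals were Retnla in dendritic-cell-like cells, at -1.02 without the richest cell of each library and -1.14 with each library clustered on its own. The number of members past the rule in macrophage-like cells fell from 1 to 0 without the shallow subcluster and at Leiden resolution 2. In monocyte-like cells it became 2 (Mrc1 and Retnla) with classes from each cell's own markers. In dendritic-cell-like cells it became 0 with thinned cells, with equal subcluster weights, without the richest cell of each library and with a minimum of 1000 UMIs. In the mixed-marker cluster it was 3, and became 1 with subclusters at resolution 0.6 and 4 with each library clustered on its own. Over all phagocyte-like cells, where 0.97% of 2886 eligible genes passed, it was 1 (Retnla) and became 2 (with Chil3) with no minimum on level or one of 10 CPM. The shares of all eligible genes past the rule are given for the main setting only and may differ under an alternative. The counts under alternatives therefore have no background beside them. The median log2 ratio of the members in macrophage-like cells was -0.084 with classes from own markers, against 0.36. The cause of these changes was not tested. Retnla kept its sign in all alternatives in macrophage-like cells (1.55 to 4.30), mixed-marker cells (1.98 to 3.69) and all phagocyte-like cells (1.82 to 2.55). Some alternatives, such as those of the level minimum, could not have changed that sign. TMM and median-of-ratios scaling raised all log2 ratios by 0.17 and 0.17 in monocyte-like and 0.15 and 0.14 in dendritic-cell-like cells. Leaving out the richest cell, moving the mixed-marker or shallow cluster and the coarser subclusters were added after seeing the data. Equal weights could not be computed for the mixed-marker cluster, which is 1 subcluster. Classes from each cell's own markers have no such cluster. Counting error is widest for the sparse genes: in macrophage-like cells Lyve1, Cd163 and Chil3 had at most 38 UMIs in a library.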

Other observations

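Some members were also measured in other classes. Cd163 stood at 10.5 CPM (4.24 to 21.7) in control and 11.5 CPM (6.27 to 19.2) in haplodeficient pericyte or smooth-muscle-like cells, from 7 and 14 UMIs, a level not below that of macrophage-like cells. Mertk in podocyte-like cells was 16.3 CPM (8.91 to 27.3) in control and 44.5 CPM (37.7 to 52.0) in haplodeficient cells, a ratio of 2.73 (1.58 to 5.11). Gas6 in podocyte-like cells was 115 CPM (93.7 to 140) and 80.0 CPM (70.9 to 90.0). Il33, an alarmin that can induce the IL-4 and IL-13 programme, stood at 127 and 225 CPM in fibroblast-like cells and 31.8 and 52.7 CPM in endothelial-like cells.

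The 2 IL-4 targets Retnla and Arg1 had opposite directions in the mixed-marker cluster, with log2 ratios of 2.74 and -1.65, and stood at 2.11 and 0.49 in macrophage-like cells, where Arg1 did not pass the rule and its ratio was 0.06 with equal subcluster weights and -0.22 with classes from own markers. The levels of Il4ra and Stat6 in the mixed-marker cluster were 81.6 and 42.6 CPM in the control and 58.9 and 34.2 CPM in the haplodeficient library.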
